A study of Mus musculus with 4 samples.

Results

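The response to 3 h of lipopolysaccharide (LPS), a cell wall component of Gram-negative bacteria, was described across all genes of wild-type mouse macrophages. It rests on 2 of the 4 libraries of the series, the wild-type culture at 3 h and the wild-type culture at 0 h, with 1 library per time. Of 24078 genes or unnamed accessions listed, 10837 had an FPKM of at least 1 in either of these libraries and could be read in both, and these are the genes described. FPKM counts fragments per kilobase of transcript and per unit of mapped reads, so it allows for transcript length and depth. Bone marrow of C57BL/6 mice with the genotype Batf2+/+ was cultured with GM-CSF, a growth factor for myeloid cells, at 10 ng/ml over 6 days, and adherent cells were used as macrophages. The treatment protocol gives 4 h of interferon-gamma (10 ng/ml) ahead of LPS (100 ng/ml), and the labels name interferon-gamma for every library. The other pair of libraries came from Batf2-/- macrophages of the same strain under the same labels. How old the animals were, and how many gave cells to a culture, was not stated in the labels. With 1 library per group no test was possible, and neither p-values nor standard errors are given.

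LPS is bound by CD14 and by the complex of Toll-like receptor 4 (TLR4) with MD-2. The receptor signals through the adaptor MyD88, which leads to NF-kappaB and MAP kinases, and through the adaptor TRIF, which leads to the factor IRF3 and to interferon-beta. Secreted interferon-beta acts back on the cells through its receptor, and many defence genes take input from it and from interferon-gamma. In macrophages this programme is known for its cytokines, its nitric oxide and prostaglandin synthesis, and for inhibitors that are induced along with it.

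Batf2, the factor targeted in the other pair of cultures and itself known as an interferon-inducible gene, was read first as a check of the labels. Its FPKM was 2.63 (deposited 95% interval 1.86 to 3.39) in the wild-type library at 0 h and 234 (226 to 243) at 3 h. In the Batf2-/- libraries it was 0.259 at 0 h and 10.1 at 3 h, below the wild-type library of the same time. Such an interval reflects counting and read assignment within a single library, so the spread between cultures is unknown. Defining macrophage markers were present in both wild-type libraries. Of 13 measured macrophage markers, 2 were higher and 2 lower at 3 h by the size rule given below, and the 3 markers named next were not among these. Lyz2, which encodes lysozyme, was the most abundant gene at both times, with 21464 and 16015 FPKM. Csf1r, the receptor for macrophage colony-stimulating factor, had 184 and 147, and Adgre1, the F4/80 antigen, had 39.1 and 43.9. Cultures in GM-CSF can also hold dendritic cells, and markers of these were present: Itgax (CD11c) had 564 and 457 FPKM and Ccl17 had 4348 and 2881, while Flt3, a receptor of dendritic cell precursors, was at 0.033 and 0.027. The summed FPKM of the dendritic cell markers was 5465 at 0 h and 4362 at 3 h, and Ccl17 made up most of both sums. Of 14 measured dendritic cell markers, 5 were higher and 4 lower by that rule, with a median difference of 0.04. Neutrophil and precursor markers summed to 3723 and 5483, led by S100a8 with 1838 at 0 h and 2833 at 3 h. Of the 15 listed markers of T, B and NK cells, 2 were measured above an FPKM of 1, and Cd3e lay at 0.031 at 0 h and 0.038 at 3 h. The part of these other cell types in the differences was not tested, and in bulk RNA fewer cells of a type cannot be told apart from less RNA per cell.

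Genes that interferon-gamma is known to induce differed widely in level in the 0 h library, to which the labels give 4 h of interferon-gamma. Cxcl9 had an FPKM of 0.624, Nos2 of 0.334, Iigp1 of 0.117 and Gbp5 of 3.52 at 0 h. Irf1 (12.4), Psmb8 (67.5), Cd274 (78.5), H2-Aa (1135) and Cd74 (6209) had higher levels there. No library of the series lacks interferon-gamma by its label, so the shares of LPS and of interferon-gamma in the differences cannot be told apart. The 3 h differences are therefore given as differences between 2 cultures.

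The promoters of 4 of the 15 highest genes and of 2 of the 15 lowest ones are printed to show what stands before their start sites. The 4 are the highest that held a match to either motif below, while the 2 lowest were taken without that condition. The presence of matches in the 4 was therefore set by the choice and is no result. Each line gives the 250 bases before the start of the leading deposited transcript, taken from RefSeq (GRCm38.p6) and read 5′ to 3′ on the strand of the gene. Capitals mark matches to the kappaB motif, bound by NF-kappaB, and to the interferon-stimulated response element (ISRE), searched on both strands as a pair of GAAA blocks with 2 bases between them.
Cxcl10: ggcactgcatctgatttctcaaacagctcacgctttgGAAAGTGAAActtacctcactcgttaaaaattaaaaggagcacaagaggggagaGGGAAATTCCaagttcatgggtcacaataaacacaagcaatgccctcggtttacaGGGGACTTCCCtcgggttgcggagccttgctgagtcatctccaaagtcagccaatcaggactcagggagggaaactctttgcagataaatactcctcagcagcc
Il6: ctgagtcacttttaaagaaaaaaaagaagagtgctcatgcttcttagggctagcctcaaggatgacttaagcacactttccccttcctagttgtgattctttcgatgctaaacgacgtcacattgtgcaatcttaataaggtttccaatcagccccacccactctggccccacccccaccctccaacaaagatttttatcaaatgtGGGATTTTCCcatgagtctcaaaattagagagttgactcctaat
Oasl1: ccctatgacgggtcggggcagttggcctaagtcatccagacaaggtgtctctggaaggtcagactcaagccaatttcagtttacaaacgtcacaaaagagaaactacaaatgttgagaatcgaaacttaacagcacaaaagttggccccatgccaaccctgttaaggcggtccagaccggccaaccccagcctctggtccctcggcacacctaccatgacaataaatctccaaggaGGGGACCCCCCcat
Cxcl2: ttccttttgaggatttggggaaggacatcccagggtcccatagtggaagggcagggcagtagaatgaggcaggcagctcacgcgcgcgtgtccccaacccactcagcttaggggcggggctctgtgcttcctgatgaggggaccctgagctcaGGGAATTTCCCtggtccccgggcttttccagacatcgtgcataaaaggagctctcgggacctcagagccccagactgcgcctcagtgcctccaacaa
Galnt9: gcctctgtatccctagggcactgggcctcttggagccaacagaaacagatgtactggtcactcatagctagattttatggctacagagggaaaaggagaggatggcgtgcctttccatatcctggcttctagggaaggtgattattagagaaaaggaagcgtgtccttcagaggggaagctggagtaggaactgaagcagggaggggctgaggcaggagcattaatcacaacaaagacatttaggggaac
Lhfpl2: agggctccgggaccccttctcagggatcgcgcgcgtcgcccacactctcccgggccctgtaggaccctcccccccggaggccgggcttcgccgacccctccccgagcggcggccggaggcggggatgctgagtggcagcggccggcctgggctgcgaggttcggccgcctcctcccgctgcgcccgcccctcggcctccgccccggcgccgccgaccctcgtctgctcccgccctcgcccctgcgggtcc
The Cxcl10 stretch lies at chr5:92348890-92349139 on the reverse strand, and the others lie on the forward strand at chr5:30012864-30013113 (Il6), chr5:114922990-114923239 (Oasl1), chr5:90903649-90903898 (Cxcl2), chr5:110603255-110603504 (Galnt9) and chr13:94057546-94057795 (Lhfpl2). In Cxcl10, which encodes a chemokine for activated T cells, an ISRE match at 213 to 204 bases before the start stood ahead of kappaB matches at 159 to 150 and at 104 to 94 bases. The kappaB match of Il6, the gene of interleukin-6, lay 44 to 35 bases before the start, that of the neutrophil chemokine Cxcl2 at 97 to 87 bases, and that of Oasl1, an antiviral gene, at 14 to 4 bases. Neither motif was found in the windows of Galnt9 and Lhfpl2, nor in those of Il12b, Cxcl9 and Il1b, which were among the 15 highest genes. Matches were found in other windows of both groups: kappaB in Gbp5 of the highest and in Rara of the lowest genes, and ISRE in Gbp5 and Rsad2 of the highest and in Dhrs3 of the lowest. No match says only that these letters are not in the window.

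Among higher genes with a promoter in the RefSeq table, 13.7% (79 of 575) held an ISRE match in the 300 bases from 250 before to 50 after the start. The share was 42.2% (27 of 64) for genes higher by 16-fold or more, 1.89% for lower genes, 2.91% for genes past neither limit and 3.49% for all 27025 promoters of the table. For the kappaB motif the shares were 16.2%, 21.9%, 9.72%, 10.0% and 8.18% in the same order. A TATAAA stretch stood in 13.4% of higher genes, in 31.3% of those higher by 16-fold or more and in 5.24% of lower genes, and GGGCGG, the core of SP factor sites, in 54.6%, 31.3% and 69.0%. Promoters of higher genes had a median GC content of 57.7%, those higher by 16-fold or more of 49.7% and those of lower genes of 62.0%. As a check over the whole sets this is void, since 72.1% of the 10837 genes could be matched to a promoter, under the minimum of 80% set for it.

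At 3 h, 817 of the 10837 genes (7.54%) were higher and 2511 (23.2%) were lower. A gene was counted when log2(FPKM + 1) differed by at least 1, which is 2-fold in FPKM + 1, and the deposited intervals, summed over entries, did not overlap. This size rule is not a test. The median difference over all genes was -0.54 on that scale, with 2384 genes above 0 and 8453 below. On that scale positive differences were larger and negative ones more numerous. In FPKM + 1, 361 genes were higher and 294 lower by at least 4-fold, and 96 higher and 9 lower by at least 16-fold. By the same measure 35 were higher by at least 64-fold. Adding 1 understates the FPKM ratios of genes that are near 0 in a library. Klf4, with a difference of -3.60, was 16.1-fold lower in FPKM and is outside the 9. Among the counted genes, 36 higher and 63 lower ones were listed at 0 in the other library, which can be a failed estimate. The plot of FPKM at 3 h against FPKM at 0 h shows both tails around a main cloud that lies below the line of equal values.

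**Figure D1:**
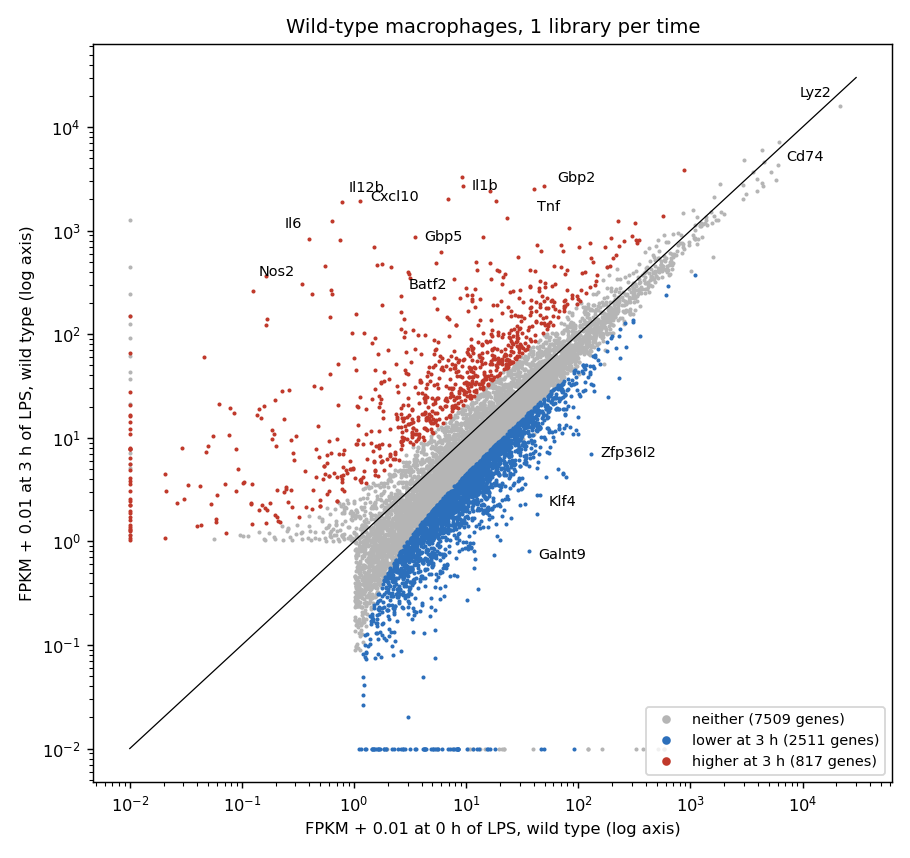
FPKM of each of the 10837 genes in the wild-type library at 3 h (vertical, log axis) against the wild-type library at 0 h (horizontal, log axis), with 0.01 added so that genes listed at 0 can be drawn. Red points are the 817 genes counted as higher, blue points the 2511 counted as lower and grey points the rest, and the line marks equal values.

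The balance between higher and lower genes differed between ranges of mean FPKM and depended on scaling. Among 1497 genes with a mean FPKM under 2, 24.1% were lower and 4.68% higher, and among 2056 genes from 2 to 5 the shares were 34.4% and 4.09%. Among the 220 genes with a mean FPKM of 300 or more, 1.36% were lower and 19.1% higher. That mean includes the 3 h library, so strongly higher genes could enter the top range through their 3 h value. Ccl5 did so, with an FPKM of 9.25 at 0 h and 3287 at 3 h. The median difference went from -0.76 at 2 to 5 FPKM to -0.16 at 300 or more. Genes counted as higher held 3.70% of the summed FPKM at 0 h and 23.4% at 3 h, and genes counted as lower held 10.2% and 3.29%. FPKM is relative to the library, so a total that grew or shrank cannot be told apart from shifted shares. When the 3 h library was multiplied by 1.47, so that the median ratio of 9297 genes with an FPKM of at least 1 in both libraries became 1, 1314 genes (12.1%) were higher and 1159 (10.7%) lower, and the median difference was -0.08. The share of higher genes among those counted was 24.5% as deposited and 53.1% after this rescaling. It shifts every log2 difference of an abundant gene by 0.55.

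**Figure D2:**
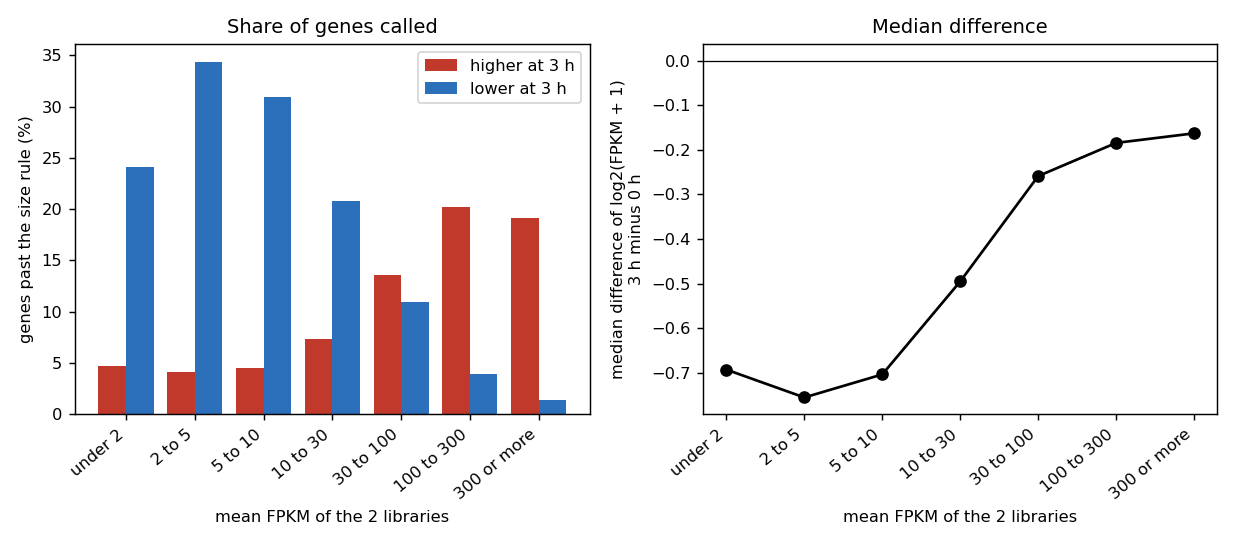
Left, the percentage of genes counted as higher (red) or lower (blue) at 3 h in 7 ranges of mean FPKM of the wild-type libraries. Right, the median difference of log2(FPKM + 1), 3 h minus 0 h, in the same ranges; it lies at -0.76 at 2 to 5 FPKM and at -0.16 at 300 or more.

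Secreted products stood among the most abundant RNAs at both times, with Ccl6 and Ccl17 at ranks 4 and 8 at 0 h. Of the 25 most abundant genes, 18 were shared between the times, with Lyz2 and Cd74, the invariant chain of MHC class II, at ranks 1 and 2 in both. Ccl5, a chemokine for T cells and monocytes, moved from rank 5864 to rank 10, with an FPKM of 9.25 at 0 h and 3287 at 3 h. Il1b, the interleukin-1 beta precursor, moved from rank 5851 to 17, with an FPKM of 9.27 at 0 h and 2694 at 3 h. Gbp2, Tnf, Acod1, Cxcl2 and Ccl3 also joined the 25 most abundant genes at 3 h. Lyz2 itself went from 21464 to 16015 FPKM and stayed below the size rule. Actb, often used as a reference gene, went from 4339.8 to 6020.0, a difference of 0.47, or 1.02 after rescaling. Gapdh had 459.9 and 396, a difference of -0.22 that became 0.33 after rescaling, so that the 2 reference genes moved apart within the same libraries.

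Il12b, the p40 subunit shared by interleukins 12 and 23, differed most among the genes with an FPKM of at least 10 in either library that passed on both scales, leaving out small RNAs, unnamed models and genes listed at 0, as for the 15 highest and 15 lowest. Its FPKM was 0.767 (0.492 to 1.04) at 0 h and 1867 (1849 to 1885) at 3 h, a difference of 10.05. Cxcl10 had 1.11 (0.645 to 1.58) and 1945 (1917 to 1973). Cxcl9, another chemokine of the receptor CXCR3, had 0.624 and 1249, and Il6 had 0.39 (0.142 to 0.639) and 826 (808 to 845). All 4 were at 1.11 FPKM or below at 0 h and at 826 or above at 3 h. Ptgs2, the inducible cyclooxygenase of prostaglandin synthesis, had 0.738 and 802, and Cd40, a costimulatory receptor, had 1.51 and 689.7. Il27 had 0.153 and 364, Oasl1 0.538 and 452, and Rsad2, the antiviral protein viperin, 1.58 and 468. Nos2, the inducible nitric oxide synthase, had 0.334 (0.223 to 0.445) and 307 (302 to 312). Cxcl2 went from 6.82 to 2012, a 295-fold ratio, Iigp1 from 0.117 to 263 and Gbp5 from 3.52 to 867.

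Transcription factors were among the 15 lowest, of which 14 are described. Galnt9, a glycosyltransferase of O-linked sugars, went from 36.1 (33.2 to 39.0) to 0.791 (0.366 to 1.21), a difference of -4.37. Zfp36l2, which binds AU-rich elements and promotes decay of mRNA, went from 131 (127 to 134) to 7.03 (6.18 to 7.88), an 18.6-fold lower level. Klf4 went from 45.1 to 2.81 (16.1-fold lower), Rara, a retinoic acid receptor, from 24.96 to 1.67, and the zinc finger gene Zfp703 from 65.8 to 4.96. Dhrs3, a retinal reductase, had 77.5 and 4.17 FPKM, so that a receptor and an enzyme of the retinoid system were both in this group. Il1rl1, the receptor of interleukin-33, had 20.0 and 1.02, the receptor Cd300lb 42.5 and 2.79, and Lpin1, a phosphatidate phosphatase, 12.7 and 0.336. Lhfpl2 (42.5 and 1.84), Eps8 (72.8 and 4.47), Rab3il1 (73.0 and 4.60), Pald1 (17.6 and 0.722) and Arl11 (51.2 and 4.195) were also in the group. In the Batf2-/- pair each of the 15 highest and each of these 14 genes was counted in the same direction, as the plot of the highest and lowest genes shows.

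**Figure D3:**
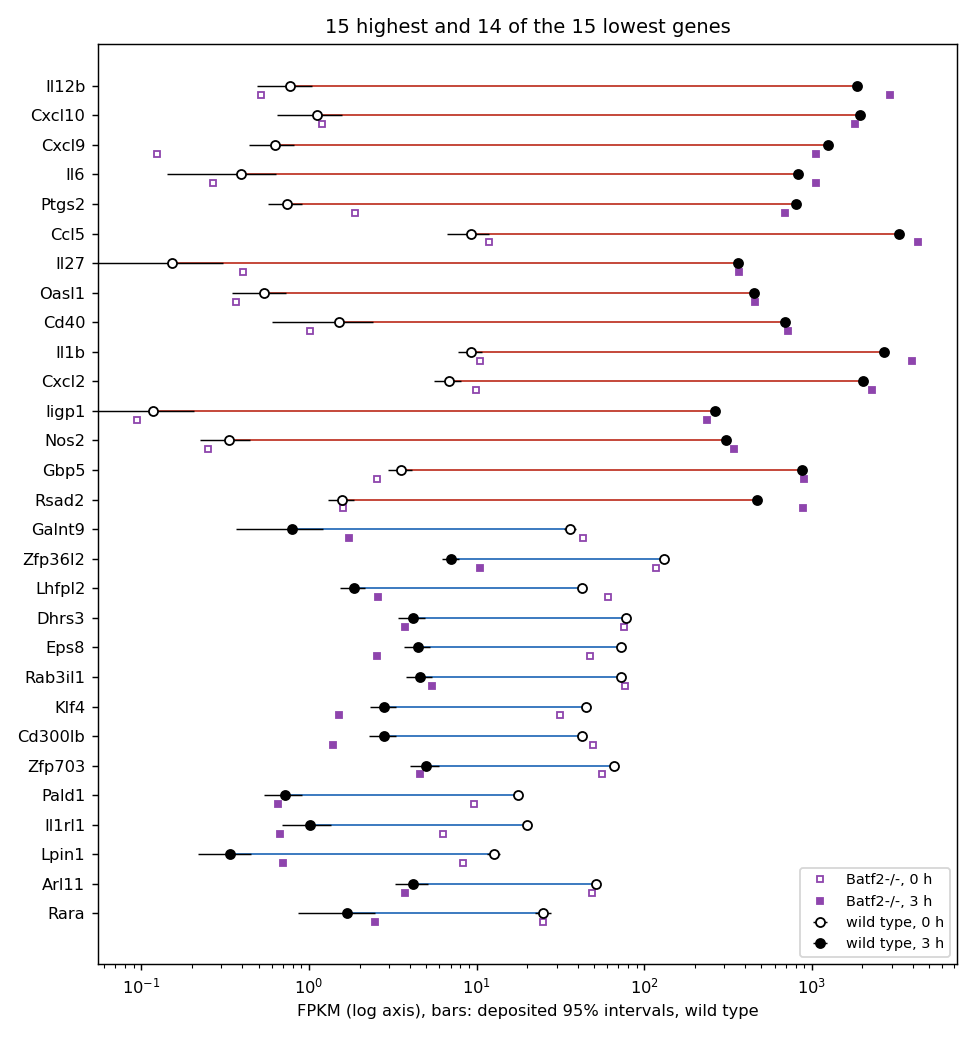
FPKM on a log axis of the 15 highest genes and of 14 of the 15 lowest genes. Circles are the wild-type library at 0 h (open) and at 3 h (filled), and squares the Batf2-/- libraries at 0 h and 3 h (open and filled). Bars are deposited 95% intervals of the wild-type libraries, with limits summed where a gene has several entries. Red lines join higher and blue lines lower genes; no wild-type interval of 0 h meets that of 3 h, and where the lower limit is 0 the bar runs off the axis.

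Genes that sense LPS and pass on its signal differed in both directions. Of 22 receptor and adaptor genes, 4 were higher and 2 lower, with a median of -0.09 that became 0.41 after rescaling. For comparison with this and the following lists, 7.54% of all genes were higher and 23.2% lower as deposited. After rescaling the shares of all genes were 12.1% and 10.7%. Cd14, the co-receptor that hands LPS to the receptor complex, had 36.9 FPKM at 0 h and 294 at 3 h, a 7.97-fold ratio. Tlr4 had 31.8 (30.2 to 33.5) and 15.1 (13.9 to 16.3), a difference of -1.03 that was -0.51 after rescaling, so its call depended on the scale. Its partner Ly96 (MD-2) had 20.6 and 27.4. Myd88 went from 53.6 to 119.7 and the kinase Irak2 from 18.0 to 57.2, while Ticam1, which encodes TRIF, had 13.1 and 11.5 and Irf3 14.9 and 7.93. Tab1, a partner of the kinase TAK1, had 5.10 and 1.20 and was lower on both scales.

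Receptors for other microbial patterns were mostly higher, 13 of 20 with 2 lower and a median of 1.58, against -0.54 for all genes. Clec4e (Mincle), a receptor of mycobacterial glycolipid, went from 16.3 to 491, and the RNA sensor Ifih1 (MDA5) from 5.46 to 176. The nucleic acid sensor Zbp1 had 11.3 and 207, and the inflammasome sensor Nlrp3 23.8 and 185. Within the Toll-like receptor family members differed in both directions. Tlr1 (3.07 and 13.7), Tlr6 (5.22 and 17.3), Tlr7 (15.6 and 33.1) and Tlr9 (3.38 and 12.4) were higher. Tlr13, a sensor of bacterial ribosomal RNA, was lower at 13.8 against 43.2, and Tlr8 at 10.95 against 25.1 was lower as deposited and past neither limit after rescaling. Tlr2 (54.7 and 69.4) passed neither limit.

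All 11 genes of NF-kappaB subunits and IkappaB proteins were higher, with a median of 2.23. Nfkbiz, an atypical nuclear IkappaB protein needed for secondary response genes such as Il6, differed most, with 1.03 and 157 FPKM. Nfkbia, the inhibitor that NF-kappaB itself induces, had 70.4 and 445. The subunits Nfkb1 (37.0 and 177), Nfkb2 (25.2 and 149.8), Rel (9.33 and 56.8), Relb (10.8 and 45.7) and Rela (32.1 and 74.1) were higher together, Rela by the smallest difference of the list, 1.18.

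Immediate early transcription factors did not differ in a uniform direction. Of 20 measured, 4 were higher and 2 lower, with a median of -0.24, or 0.19 after rescaling. Nr4a3, an orphan nuclear receptor, had 5.56 and 83.1, Maff 8.37 and 53.7, and Junb 80 and 264. Jun (35.2 and 18.4), Fos (11.5 and 6.27) and Egr1 (9.85 and 5.51) were past neither limit, with values below 0 h. Myc, a driver of growth and ribosome synthesis, went from 31.2 to 3.29, a 9.48-fold lower level, and Egr2 from 74.5 to 19.1.

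Of 17 IRF, STAT and BATF factors, 9 were higher and 2 lower, with a median of 1.08. Batf2 led this list with a difference of 6.02. Irf7, which amplifies interferon production, had 1.51 and 92.02 FPKM, Irf1 12.4 (11.3 to 13.5) and 419 (411 to 428), and Irf8 19.4 and 403. Stat2 had 16.4 and 86.0, and Stat3 27.7 and 84.2. The lower members were Irf4 (58.8 and 11.4) and Batf3 (39.4 and 10.6), factors known from dendritic cells and from alternative activation. Irf5, the most abundant IRF at 0 h, had 158 and 125 and passed neither limit, and by 3 h Irf1 and Irf8 lay above it.

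Lineage factors and nuclear receptors had 10 lower and 4 higher members of 33, beside 23.2% and 7.54% of all genes. Their median was -0.58 (-0.11 after rescaling), near the -0.54 of all genes. After rescaling 10 were higher and 10 lower, beside 12.1% and 10.7% of all genes. Spi1, which encodes the myeloid master factor PU.1, had 309 and 386 and passed neither limit. The lipid sensor Pparg went from 14.99 to 2.00, its partner Rxra from 30.1 to 5.36, and Tfeb, a factor for lysosome genes, from 20.1 to 2.17. Runx1 (17.8 and 5.32), Mef2d (17.2 and 5.38) and Bhlhe40 (155 and 51.6) were lower too. All 10 lower members, with Klf4 and Rara among them, kept their calls after rescaling.

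Secreted cytokines had the highest median of the lists outside those of interferon-induced genes. Of 25 measured, 19 were higher, with a median of 3.06. Tnf went from 39.9 (37.4 to 42.4) to 2492 (2467 to 2516), a 62.5-fold ratio, Il1a from 18.4 to 1935, and Tnfsf15, a TNF family ligand, from 5.96 to 614. Their 0 h levels differed, since Tnf and Il1a were already present before LPS while Il12a (0.036 and 60.5) and Il23a (0.066 and 10.6) were near 0. Ifnb1, the interferon-beta gene, had 0.068 (0 to 0.135) and 19.5 (15.98 to 23.1). The interleukin-1 receptor antagonist Il1rn, an inhibitor, was the most abundant member at 0 h (231) after Tgfb1 (261), and reached 710.0, while Tgfb1 had 169 and passed neither limit. Il10, the main anti-inflammatory cytokine of macrophages, was listed at 0 at 0 h and had 0.635 at 3 h, below the minimum of 1, and Csf2 had 0.281. Il16 was the 1 member counted as lower, at 1.52 against 4.04, and it passed neither limit after rescaling. The summed FPKM of the list was 657 at 0 h and 12024 at 3 h.

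Chemokines had 14 higher and 1 lower members of 25, with a median of 1.45. Their sum was already 12857 FPKM at 0 h, held by Ccl6 (5798) and Ccl17 (4348), and was 22726 at 3 h. Chemokines for neutrophils were among the higher ones: Cxcl1 had 0.411 and 246, and Cxcl3 12.3 and 496. Ccl3 and Ccl4, which attract monocytes and lymphocytes, were abundant at 0 h and higher still at 3 h, with 867 and 3802 for Ccl3 and 226 and 1225 for Ccl4. Ccl2, the monocyte chemokine, had 426 and 387, Ccl7 47.1 and 37.2, and Ccl6 5798 and 3073, and these passed neither limit. Cxcl12 was the lower member (2.90 and 0.827), and passed neither limit after rescaling.

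Receptors for cytokines and chemokines had 5 higher and 10 lower of 36, beside 7.54% and 23.2% of all genes, and a median of -0.24, or 0.23 after rescaling. Ccrl2, a chemokine-binding receptor, went from 5.17 to 226, Il15ra from 2.04 to 37.3, and Ccr7, which guides cells to lymph nodes, from 1.80 to 18.2. Il6ra, which binds interleukin-6, went from 14.1 to 1.35, and its signalling chain Il6st from 20.4 to 7.04, lower as deposited only. Il1r1, the signalling receptor of interleukin-1, had 6.34 and 0.751, Tgfbr2 33.1 and 6.14, and Cxcr4 15.6 and 2.14. Csf2rb (436 and 295) and Csf2ra (272 and 245), chains of the GM-CSF receptor, passed neither limit. Tnfrsf1b, a TNF receptor, had 113 and 165 and passed neither limit as deposited and the upper one after rescaling.

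Each of the 36 listed type I interferon-stimulated genes was higher at 3 h, with a median of 4.28 and differences from 1.32 (Bst2) to 8.20 (Oasl1). Ifit1 and Ifit2, which bind foreign RNA, had 0.629 and 244 and 1.75 and 472 FPKM, and the ubiquitin-like Isg15 3.05 and 379.7. Mx1, a dynamin-like antiviral GTPase, had 10.1 and 241. At the lower end of the list, Bst2 (tetherin) went from 59.3 to 149 and Ifitm3 from 61.1 to 206, both abundant before LPS.

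The 19 GTPases known to be induced by interferon-gamma, which act on vacuoles that hold pathogens, were all higher, with a median of 4.69. Gbp2 had 49.8 at 0 h and 2688 at 3 h, Irgm1 9.91 and 279.6, and Gbp3 21.3 and 355. Tgtp1 and Tgtp2, which are near-identical copies, had 0.154 and 122 and 0.159 and 139, and reads could be split between them. Of 23 genes known as early targets of interferon-gamma, 18 were higher and none lower, with a median of 4.00, and some of these also stand in other lists. Fcgr1 (39.8 and 42.8), Cd74 (6209 and 7081), H2-Aa (1135 and 1341), Ciita (18.8 and 26.2) and Ido1 (0.147 and 1.04) were the members past neither limit as deposited, and Ido1 was higher after rescaling.

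Antigen presentation split by class. Of 18 MHC class I genes 14 were higher, none lower, and the median was 1.45. The peptide transporter Tap1 had 17.5 and 189, the immunoproteasome subunit Psmb9 27.0 and 151, and Nlrc5, the class I transactivator, 4.59 and 42.9. H2-K1 had 333 and 762 and B2m, the light chain, 2971 and 4819, the latter past neither limit as deposited. Of 13 MHC class II genes 1 was higher (H2-Oa, 1.68 and 6.73), none was lower, and the median was 0.24. H2-Ab1 had 1635 and 2111, and H2-Eb1 694 and 932. In the Batf2-/- pair 7 of 13 class II genes were higher, among 7.84% of 10958 genes higher there, with a median of 1.11. Their summed FPKM at 0 h was 15221 in wild-type and 10499 in Batf2-/- cells, and at 3 h 16159 and 17799. The difference between the pairs was not tested.

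Genes that carry interferon signals were in part higher, 8 of 15 with 1 lower and a median of 1.06. Jak2 had 53.1 and 178, Irf9 11.3 and 33.6, and Usp18, which limits type I interferon signalling, 2.61 and 112. Ifngr1, the ligand-binding chain of the interferon-gamma receptor, was the lower member as deposited, with 51.3 and 18.7 and a difference of -1.40, and it passed neither limit after rescaling at -0.88.

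Inhibitors of the response were part of it. Of 23 feedback inhibitors 10 were higher and 3 lower, with a median of 0.49. Tnfaip3 (A20), a deubiquitinase that ends NF-kappaB signalling, went from 13.2 to 217. Socs1 had 10.46 and 168, and Socs3, which limits signals of interleukin-6 type cytokines, 26.0 and 260.5. Tnip1 had 47.2 and 234. In the same list Socs2 went from 50.9 to 9.70, and Pdlim2 from 15.9 to 2.99. The ZFP36 family of mRNA decay factors split, with Zfp36 (tristetraprolin) higher at 52.4 and 113, Zfp36l1 past neither limit at 22.0 and 12.3, and Zfp36l2 lower as above.

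The MAP kinase phosphatases had 3 higher and 4 lower members of 11, with a median of -0.78 (-0.32 after rescaling). Dusp16 (5.22 and 23.1) and Dusp2 (0.569 and 5.64) were higher. Dusp6, which acts on ERK, went from 17.3 to 2.45, Dusp7 from 12.8 to 2.40 and Dusp3 from 54.1 to 15.99. Dusp1, a known early inhibitor of p38, had 16.8 and 9.04 and passed neither limit.

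Effector genes of microbe killing included abundant RNAs among the higher ones. Acod1, which makes itaconate, went from 16.5 to 2389, a 145-fold ratio, and Saa3, an acute phase protein, from 23.2 to 1322. Slc7a2, an arginine transporter that feeds nitric oxide synthase, had 20.9 and 304, and Sod2, the mitochondrial superoxide dismutase, 32.3 and 206. The list had 9 higher and 2 lower members of 24, with a median of 0.43. These subunits of the NADPH oxidase passed neither limit: Cybb had 475 and 559.9, and Cyba 965 and 768. Arg1, which competes with nitric oxide synthase for arginine, was low at both times, at 3.58 and 1.06, and counted as lower as deposited only.

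Costimulators were higher for 10 of 15, with 2 lower and a median of 2.38. Cd86 had 6.07 and 48.2 and Cd80 13.8 and 78.0, the ligands of CD28. Cd274, the inhibitory ligand PD-L1, went from 78.5 to 412. The adhesion ligands Icam1 (73.2 and 631) and Vcam1 (8.06 and 123) were higher with them. Vsir (VISTA), another inhibitory ligand, went the other way, from 54.6 to 7.08, and Havcr2 (TIM-3) from 5.40 to 1.71, lower as deposited only.

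In eicosanoid synthesis, inducible prostaglandin genes were higher and 3 leukotriene genes lower. The list had 3 higher and 6 lower members of 17, with a median of -0.87 (-0.38 after rescaling). Ptges, the inducible prostaglandin E synthase, followed Ptgs2 with 0.923 and 5.01, and the receptor Ptger4 had 12.3 and 27.8. Ptgs1, the constitutive cyclooxygenase, went from 29.6 to 4.06, so that the 2 cyclooxygenases differed in opposite directions. Alox5, which starts leukotriene synthesis, had 33.1 and 6.61, Lta4h 75.8 and 21.9, and Ltc4s 10.4 and 3.52. Ltc4s passed neither limit after rescaling, while Alox5 and Lta4h stayed lower. Alox5ap, the most abundant member at 0 h, had 306 and 157 and passed neither limit.

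Genes of cell death and survival were 14 higher and 2 lower of 31, with a median of 0.70. Casp4, whose product (caspase-11) senses LPS in the cytosol, went from 5.24 to 70.3. The survival genes Cflar (19.0 and 190.1) and Birc3 (15.04 and 85.8) were higher, as were Bcl2a1b (327 and 814) and its near-identical copies. Casp1 had 28.1 and 106. The inflammasome adaptor Pycard (ASC) had 65.3 and 34.9 and passed neither limit, while Bcl2 (6.49 and 1.51) and Bbc3 (8.69 and 2.92) were lower as deposited.

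Glycolysis genes held 4 higher and no lower members of 19, with a median of -0.13, or 0.42 after rescaling. The higher ones were Hif1a, a regulator of the pathway (49.4 and 207), the hexokinases Hk3 (74.8 and 211) and Hk2 (22.6 and 55.7), and the phosphofructokinase Pfkp (97.7 and 234). Downstream enzymes such as Aldoa (658 and 601), Pkm (550.1 and 469) and Ldha (312 and 274) passed neither limit. Eno1 was listed at 0 in all 4 libraries, which for so central an enzyme cannot be read as absence. In other lists Arg2, Ass1, Fdft1, Pltp, Rfc4, Rpl30, Rpl34, Xrcc3 and Ogg1 were listed at 0 in both wild-type libraries. They are not in the counts of measured members.

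Mitochondrial pathways differed little in comparison. None of 39 respiratory chain genes passed the rule, with a median of -0.30, or 0.25 after rescaling. Of 23 citric acid cycle genes 3 were lower, beside 23.2% of all genes, with a median of -0.49 that became 0.05. The lower ones were Idh1, a cytosolic isocitrate dehydrogenase, with 104 and 25.3, Idh2 with 38.4 and 17.2 and Aco1 with 24.0 and 11.2, of which Idh1 was lower on both scales. Cs (83.3 and 84.1) was level.

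Among genes of sterol and fatty acid synthesis the counted ones were lower. Of 25 cholesterol synthesis genes 12 were lower and none higher, all 25 lay below 0, and the median was -0.96. After rescaling 5 were lower and the median was -0.43. Dhcr7, the last reductase of the pathway, went from 23.5 to 2.57, Mvd from 77.8 to 13.3 and the squalene epoxidase Sqle from 43.2 to 11.7. The regulator Srebf2 had 47.3 and 41.2 and passed neither limit. Among LXR targets and lipid handling genes 3 were higher and 10 lower of 29, with a median of -0.53, close to the -0.54 of all genes. After rescaling 3 were higher and 5 lower, with a median of -0.04. Of all genes, 23.2% were lower as deposited and 10.7% after rescaling. The desaturase Scd2 went from 182 to 24.6, the fatty acid synthase Fasn from 20.7 to 3.64 and the cholesterol exporter Abcg1 from 89.4 to 19.8. Ch25h, which makes the oxysterol 25-hydroxycholesterol, went from 2.77 to 139, and Acsl1, an acyl-CoA synthetase, from 19.0 to 416.

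Antioxidant and haem genes were mixed, 5 higher and 3 lower of 21, with a median of 0.11. The metallothionein Mt2 had 44.3 and 282, the thioredoxin reductase Txnrd1 105 and 264 and Prdx5 573 and 1396. Hmox1 (245 and 143) passed neither limit. Tfrc, for iron uptake, had 11.1 and 4.54, and Slc40a1, the iron exporter, 10.7 and 4.61, both lower as deposited and past neither limit after rescaling. Among amino acid and integrated stress genes 3 were higher and 7 lower of 24, beside 7.54% and 23.2% of all genes. Their median was -0.51 (-0.01 after rescaling), near the -0.54 of all genes. The higher ones were the cystine transporter Slc7a11 (36.8 and 154), its partner Slc3a2 (97.2 and 196) and the tryptophanyl-tRNA synthetase Wars (19.1 and 105). Other tRNA synthetases did not follow it, as with Iars, which was lower as deposited at 19.2 and 6.93. Slc7a5, a transporter of large neutral amino acids, went from 12.6 to 2.07.

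Cell cycle genes had the largest shares of lower members among the lists. Of 38 DNA replication genes 32 were lower and none higher, with a median of -1.50, and of 33 mitosis genes 27 were lower, with a median of -1.45. After rescaling 21 and 17 were lower, with medians of -1.06 and -1.07. All subunits of the MCM helicase were lower, from Mcm6 (34.0 and 6.52) and Mcm2 (22.6 and 4.33) to Mcm5 (28.3 and 10.1), the last past neither limit after rescaling. Uhrf1 had 20.6 and 3.37 and the ribonucleotide reductase subunit Rrm2 45.7 and 12.6, while Pcna, the sliding clamp, had 167 and 99.5 and passed neither limit. Ccna2 went from 31.8 to 8.47, Kif20a from 18.1 to 3.58 and Plk1 from 15.8 to 4.34. Mki67 did not follow, with 33.2 and 38.1 FPKM, nor did Mad2l1, with 20.4 and 22.1. Cdc20 was listed at 0 at 3 h against 15.5 at 0 h. DNA repair genes were lower for 18 of 33, with a median of -1.09. Among them Chek2 went from 11.8 to 1.67 and Parp1 from 25.2 to 7.32. The values of proliferation genes at 0 h were modest, and in these bulk libraries a smaller share of dividing cells and less of these RNAs per dividing cell cannot be told apart.

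Genes of protein synthesis lay closer to the bulk of all genes. None of 46 cytosolic ribosomal protein genes passed the rule, their differences lay between -0.54 and 0.10, and the median of -0.36 became 0.18 after rescaling. Ribosome biogenesis genes were lower for 11 of 35 as deposited and for 4 after rescaling, beside 23.2% and 10.7% of all genes. Their median was -0.84 (-0.35), with Nop56 at 32.4 and 8.88 and Nolc1 at 24.3 and 6.71. Npm1 (91.4 and 58.7) and Ncl (53.6 and 28.5), the most abundant of them with Nhp2, passed neither limit. Mitochondrial ribosomal proteins were lower for 5 of 30, with a median of -0.68 (-0.17). Unfolded protein response genes had 0 higher and 2 lower of 19, with Xbp1 lower as deposited at 73.3 and 24.8, and a median of -0.34 that became 0.16. Heat shock proteins had a median of -0.34 that became 0.20, with the inducible Hspa1a at 0.846 and 4.83. Lysosome genes had 1 higher and 4 lower of 38 and a median of -0.54, or 0.00 after rescaling. Ctsc, a cathepsin that activates granule proteases, went from 254 to 796, while the proton pump subunit Atp6v0d2 went from 358 to 95.3.

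Surface receptors differed within each family. Of 6 Fc receptor genes Fcgr4, an activating receptor, was higher (6.00 and 46.4) and Fcgr2b, the inhibitory one, lower (267 and 74.8), with a median of -0.29 (0.26 after rescaling). Scavenger, lectin and efferocytosis receptors had 8 higher and 12 lower of 33, with a median of -0.46, or 0.09 after rescaling. Marco, a receptor for bacteria, went from 32.5 to 144 and Mertk, a receptor for apoptotic cells, from 28.4 to 76.4. The mannose receptor Mrc1 went from 129.7 to 32.9 and the lectin Clec10a from 76.7 to 26.2, the latter lower as deposited only. Clec4n, the most abundant member (Dectin-2), had 1604 and 1381 and passed neither limit. Among 19 integrins and adhesion genes 5 were higher, with Itgal (the LFA-1 alpha chain) at 37.8 and 182 and Itga4 at 11.4 and 73.4. Its median was 0.25, and Selplg (195 and 92.7) was lower as deposited.

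Receptors coupled to G proteins differed in both directions. Of 29 measured 9 were higher and 10 lower, with a median of -0.47, or 0.06 after rescaling. Receptors for formyl peptides of bacteria, Fpr1 (7.36 and 60.9) and Fpr2 (25.3 and 167), the complement receptor C5ar1 (16.6 and 55.6) and the adenosine receptor Adora2a (1.85 and 35.0) were higher. P2ry6, for UDP, went from 84.2 to 12.8, C3ar1 from 41.0 to 7.39 and P2rx7, an ATP-gated channel, from 16.5 to 3.53. The receptors of the complement fragments C5a and C3a therefore differed in opposite directions, and so did the adenosine receptors Adora2a and Adora3 (3.36 and 0.402).

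Markers of alternative activation had 3 higher and 9 lower of 19, with a median of -0.90 (-0.36 after rescaling). Mgl2 went from 609.5 to 238 and was lower as deposited, while Tgm2, the transglutaminase, was higher at 212 against 38.02 and Ccl22 at 881 against 302. Matrix protease and coagulation genes had 7 higher and 6 lower of 27, beside 7.54% and 23.2% of all genes, with a median of 0.03. The protein C receptor Procr went from 42.8 to 722, tissue factor F3 from 15.2 to 67.3 and Serpinb2, an inhibitor of urokinase, from 4.61 to 48.5. Urokinase itself, Plau, went from 229 to 37.4, while its receptor Plaur (665 and 487) passed neither limit. The macrophage elastase Mmp12 had 3948 and 2420.4 and also passed neither limit.

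**Figure D4:**
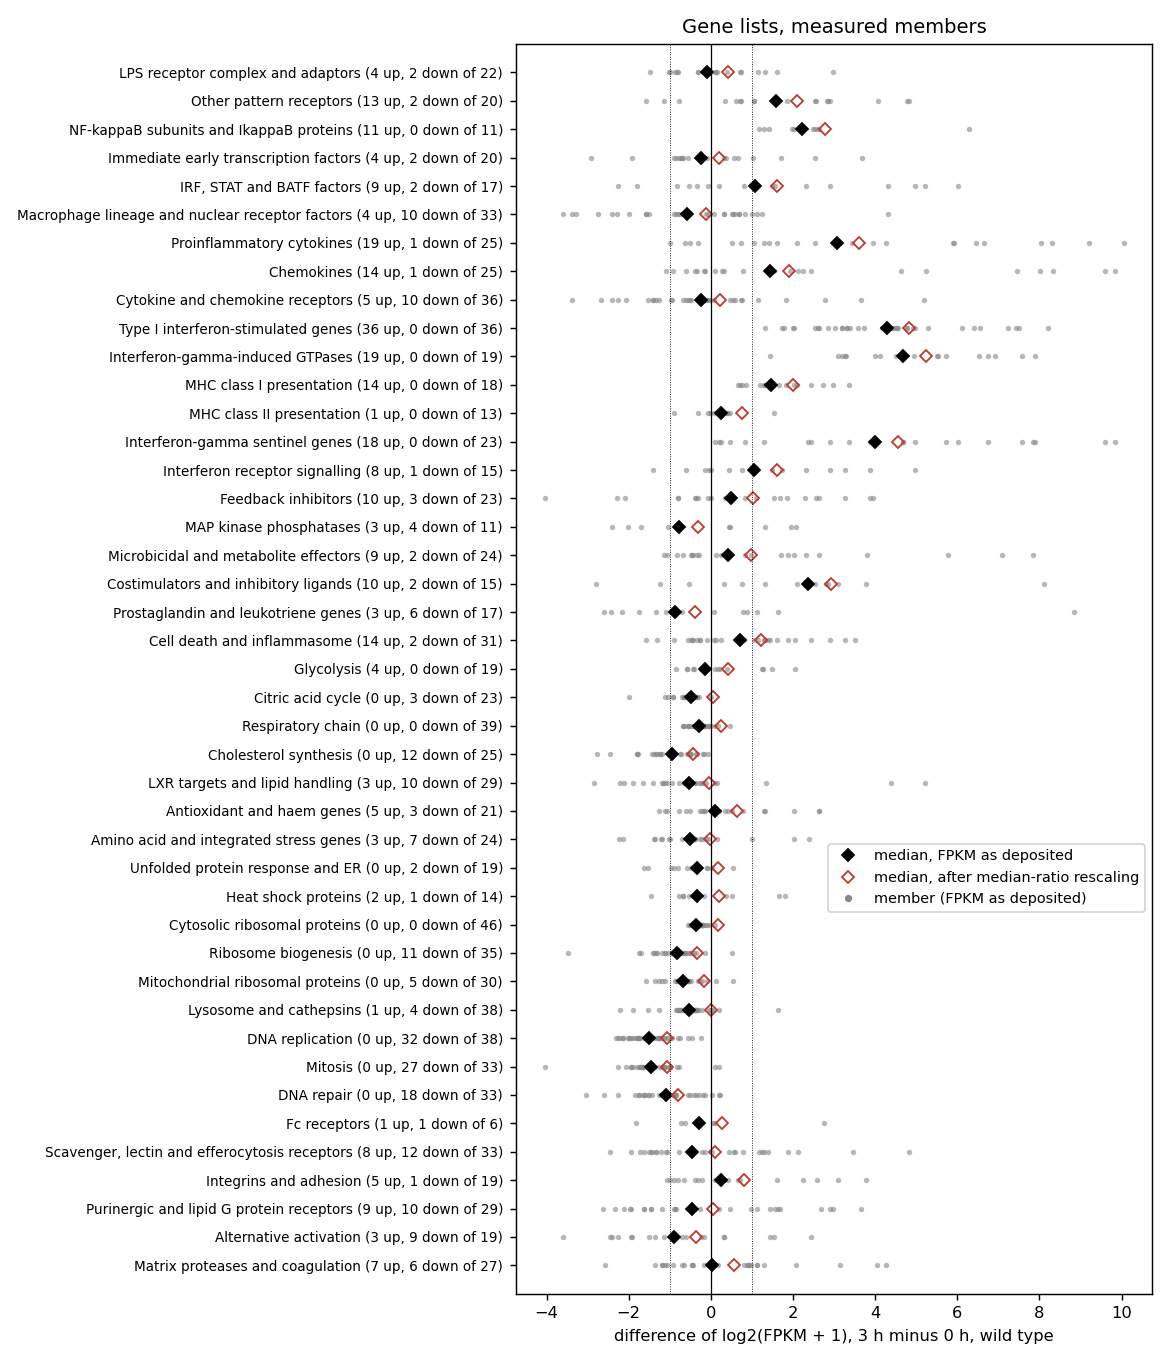
Difference of log2(FPKM + 1), 3 h minus 0 h, of the measured members of 43 gene lists (grey points), with the median of each list as deposited (black diamond) and after median-ratio rescaling (open red diamond). Counts after each name give members higher and lower, and dotted lines mark a difference of 1 in either direction. Medians lie farthest to the right for type I interferon-stimulated genes, interferon-gamma-induced GTPases and early interferon-gamma targets. They lie farthest to the left for the cell cycle lists.

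Higher genes stood side by side on the chromosomes in known gene clusters. There were 9 stretches of at least 5 neighbouring measured genes that were all higher, in the order of the genes in GRCm38. The longest held 11 genes from Aim2 to Ifi205 on chromosome 1 from 173420604 to 174031755, the family of nuclear DNA sensors that includes Ifi204 and Ifi211, with differences from 1.04 to 6.40. On chromosome 11, 9 genes from Irgm1 to Ifi47 at 48865249 to 49096987 and 8 entries of the Schlafen family (a pseudogene among them) at 82952102 to 83215154 were higher. The Ifit genes on chromosome 19 (6 genes at 34550694 to 34650009) and the guanylate-binding proteins on chromosome 3 (5 genes at 142496934 to 142638008) and chromosome 5 (6 genes at 105014153 to 105346472) followed, with the Sp100 family on chromosome 1, the Phf11 family on chromosome 14 and the Serpina3 family on chromosome 12. Members of such families are close copies, and the counting could share reads among them. Serpina3g had 3.04 at 0 h and 397 at 3 h, and Serpina3f was listed at 0 at 0 h. Of the lower genes 18 stretches of at least 5 were found, among more than 3 times as many genes. The longest, 8 genes on chromosome 16 from 44724301 to 45158673, held 4 genes of the CD200 receptor family, with Cd200r1 at 134 and 32.4. Another held the 4 Scd desaturase genes with Bloc1s2 on chromosome 19 from 44139247 to 44407709.

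**Figure D5:**
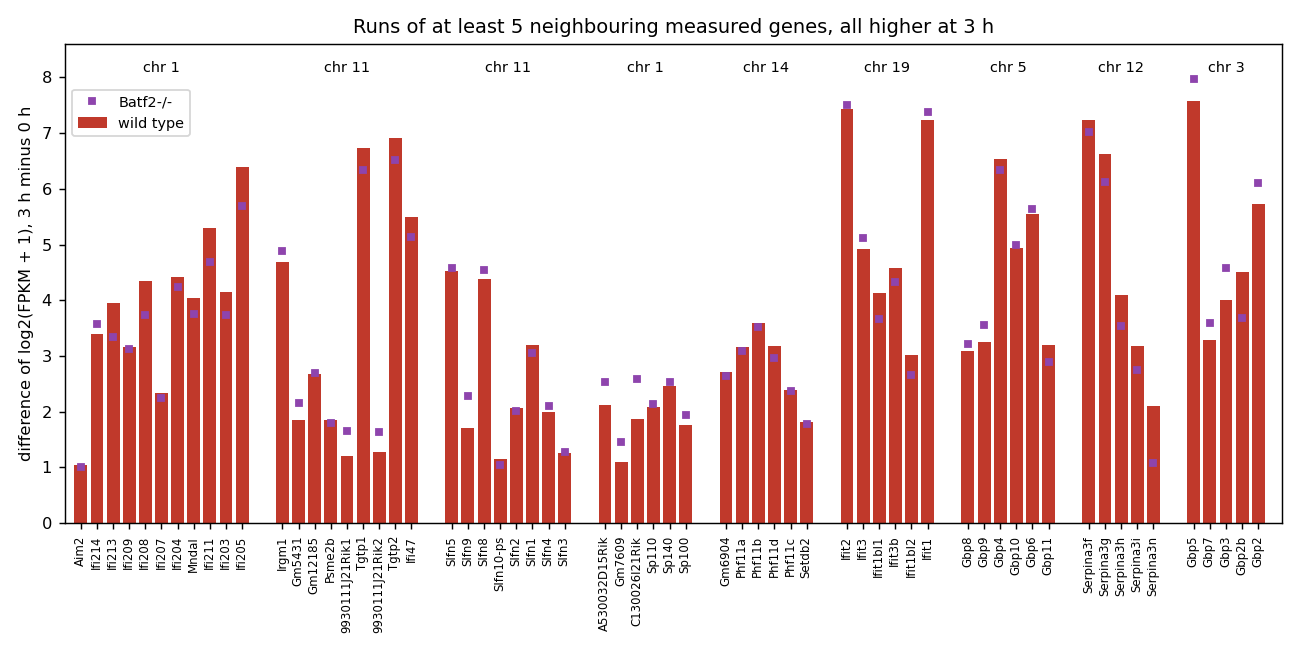
Difference of log2(FPKM + 1), 3 h minus 0 h, for each gene of the 9 stretches of at least 5 neighbouring higher genes, wild type as bars and Batf2-/- as squares, with the chromosome above each stretch. All bars are above 1, and all squares are above 0.

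The same genes were read in the Batf2-/- pair, which shares no library with the wild-type pair but differs in genotype and is no replicate of it. In that pair 859 of 10958 genes (7.84%) were higher and 3064 (28.0%) lower, with a median of -0.64. Of 803 genes higher in wild-type cells and tested in both pairs, 718 were also higher in Batf2-/- cells, which is 89.4% of the wild-type and 86.0% of the Batf2-/- list. Of 2491 lower genes 2205 were lower in both, 88.5% and 72.7% of the lists. The sign was the same for 99.0% of the higher and 99.8% of the lower wild-type genes. As deposited, 8754 of all 10958 genes lay below 0 in the Batf2-/- pair, so most genes there shared the sign of the lower list. The 2 genes that were lower in wild-type and higher in Batf2-/- cells, Akr1b3 and Capzb, were listed at 0 in a library. Among leading genes, Il12b had 0.519 and 2916 FPKM in Batf2-/- cells, Nos2 0.248 and 341, Tnf 40.03 and 2815, and Klf4 31.5 and 1.51. Neutrophil and precursor markers differed in opposite directions in sum, from 3723 to 5483 FPKM in wild-type and from 9138 to 5315 in Batf2-/- cells, and their part in the differences was not tested.

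Since the tables list transcripts, the leading RefSeq transcript of a gene could be followed as well. Among 1165 genes with at least 2 entries at 1 locus and an FPKM of at least 10 at both times, the leading entry differed between 0 h and 3 h for 58, with a move of its share by at least 40 percentage points. In 39 of these both entries had the same ends, so that the shares rest on internal exons, and in 14 the same pair of leaders was seen in the Batf2-/- libraries. For P2ry14, a receptor of UDP-sugars, the entry that led at 0 h held 100% of 59.4 FPKM at 0 h and 39.2% of 187 at 3 h, where an entry whose start lies 21030 bases away held 60.8%. The share of that more distant start was 19.2% at 0 h and 62.5% at 3 h in Batf2-/- cells. For Syk, a kinase below lectin and Fc receptors, the entry starting 13445 bases away from the 0 h leader held 0% at 0 h and 55.4% at 3 h, and 21.9% and 53.9% in Batf2-/- cells. For Wars, the leading entry at 0 h held 82.2% of 19.1 FPKM then and 0% of 105 at 3 h, where an entry starting 976 bases away held 100%. For Acpp the entry that led at 3 h held 71.4% at 3 h and was listed at 0 at 0 h, in the Batf2-/- library at 0 h as well. A share of 0% or 100% is the assignment of reads among overlapping entries by the authors' software, and reads over the exons that tell the entries apart were not analysed here.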

How the data were processed

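RNA-seq tables of 4 libraries were used, 1 per group. The deposited values are FPKM per RefSeq transcript with a 95% interval and a status, per the file headers. Per the submitters' processing notes, the authors used TopHat2, Bowtie, SAMtools and Cufflinks with mm9, with no versions stated. For 96.6% of 33706 entries the listed locus fell within the gene of the same name in GRCm38, so coordinates are given in that build. Per the labels' protocols the libraries were strand-specific single reads. Of 33841 entries, 33437 were named by RefSeq accession, 187 from the GENCODE table and 107 by position (Il12b and Mx1 among them), and 110 kept their accession. FPKM was summed over the entries of a symbol, and 262 genes with a status other than OK in a wild-type library were left out. Depth, estimated from entries that hold a single read, was 24.8, 20.3, 28.0 and 30.7 M reads (M, 10 to the power 6; wild type at 0 h and 3 h, Batf2-/- at 0 h and 3 h). Differences are of log2(FPKM + 1), which understates changes of low genes. The size rule asked for a difference of at least 1, an FPKM of at least 1 in either library and intervals that do not overlap. A printed interval has the deposited relative width and is centred on the FPKM. For a symbol with several entries the deposited limits were summed, so its interval is not a 95% interval of the summed FPKM. Rescaling, other pseudocounts, minima and limits were tried as alternatives. Scripts ran in Python 3.11.15 with pandas 2.3.3 and numpy 2.4.6 and were tested on simulated data. Named genes were the 15 highest and 15 lowest at 10 FPKM or more that passed on both scales, without unnamed models, small RNAs and genes listed at 0, with 12 key genes and up to 6 members a list by size of difference and by level; further members were named after their values were seen. The members and gene lists were chosen with earlier results of these data known. Some genes that the naming rule selects are not reported here.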

Additional observations from a re-analysis of the deposited data

Results flagged for a closer look

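For 8 gene lists the median difference of log2(FPKM + 1) between 3 h and 0 h had opposite signs in the wild-type and the Batf2-/- pair, on FPKM as deposited. With both pairs rescaled, opposite signs remained for the neutrophil and precursor markers (0.87 in wild-type and -0.050 in Batf2-/- cells) and the MAP kinase phosphatases (-0.32 and 0.57), and the medians of the other lists were above 0 in both. With 1 library per group the difference between the pairs was not tested. The largest gap as deposited was in the neutrophil and precursor markers, with 0.34 in wild-type and -0.67 in Batf2-/- cells: S100a8 had 1838 and 2833 FPKM in wild-type cells at 0 h and 3 h and 4545 and 2865 in Batf2-/- cells, so the pairs differed at 0 h and lay close at 3 h. Ltf had a smaller value at 3 h than at 0 h in both pairs, with 83.2 and 56.7 in wild-type and 256 and 56.5 in Batf2-/- cells. In wild-type cells it passed neither limit. The MAP kinase phosphatases had medians of -0.78 and 0.076; Dusp1 had 16.8 and 9.04 in wild-type and 16.6 and 17.6 in Batf2-/- cells. Mast cell, basophil and eosinophil markers had 0.13 and -0.42, stromal markers 0.015 and -0.36, integrins and adhesion genes 0.25 and -0.16, and matrix proteases and coagulation genes 0.029 and -0.26. Macrophage markers had -0.26 and 0.090 and dendritic cell markers 0.043 and -0.12.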

How the results depend on the processing

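No paired analysis was possible because each group holds 1 library. With 1 library a group no replicate could be left out either. Median-ratio rescaling moved the counts from 817 higher and 2511 lower genes to 1314 and 1159, with a median difference of -0.079. The factor depended on the genes behind it: it was 1.47 from 9297 genes with an FPKM of at least 1 and 1.24 from 4075 genes with at least 10. The latter, chosen after the data were seen, gave 1058 higher and 1632 lower genes and a median of -0.28. Scaling to the upper quartile gave 963 and 1880, with a median of -0.38. A 4-fold limit on FPKM + 1 left 361 and 294 genes. A pseudocount of 5 left 590 higher and 790 lower genes and a median of -0.33. With a pseudocount of 0.1 there were 907 higher and 3509 lower genes and a median of -0.63. Leaving out the FPKM minimum gave a median of -0.27. With both genotypes rescaled, also added after the data were seen, the genes counted in both pairs went from 718 to 1176 (higher) and from 2205 to 915 (lower). At an FPKM of at least 5, 114 genes in place of 58 had differing leading transcripts. Of 266 recomputed differences of named genes, only Gapdh, past neither limit, changed sign, after median-ratio rescaling. Median-ratio rescaling turned the sign of 14 of 48 list medians, and without the FPKM minimum the median of the MAP kinase phosphatases went from -0.78 to 0.37. Depth limits the low end: with an estimated 24.8 and 20.3 M reads in the wild-type libraries, values under 1 FPKM at 0 h rest on few reads, and the ratios of genes such as Il12b and Il6 are imprecise for that reason.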
